A study of Mus musculus with 7 samples.

Results

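Of 9 genes that glucocorticoids are known to switch on, 7 were higher in the LBR-null kidneys than in the kidney of a WT littermate, Sgk1 and Errfi1 overlapped with it, and the transcript of the receptor was not higher. The genes described here are 10 of the 24328 in the deposited tables, chosen by name for their known response to glucocorticoids: the receptor gene Nr3c1 and the target genes Fkbp5, Tsc22d3, Zbtb16, Sgk1, Ddit4, Klf9, Mt1, Mt2 and Errfi1. They were chosen with earlier results of these data known, so shares of all genes given beside them describe the list and test nothing. In 7 of the 10, every LBR-null library lay above both WT libraries, as in 25.5% of all genes tested, and the mean over the LBR-null mice was at least 2 times the WT value, as in 14.5%. Fkbp5, Mt2 and Zbtb16 differed most, at 5.86, 5.83 and 5.21 times WT. None of the 10 passed limma's adjusted threshold with 3 mice against 1, nor did any other gene (0%), while those 7 passed it in DESeq2, where 3.24% of all genes were called higher. edgeR called none of the 10, and 1 gene higher and 27 lower among all genes.

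Whole kidney RNA (poly(A)-selected) was compared between 3 LBR-null mice and 1 WT littermate, all on the C57BL/6J background and 4 weeks old. LBR-null mice (4001, 4002 and 4007) were homozygous for a germline allele of the gene for the lamin B receptor (Lbric-J/ic-J), which ties heterochromatin to the inner nuclear membrane, and the WT mouse (4009) was Lbr+/+. There were 2 libraries from each of mice 4001, 4007 and 4009 and 1 library from mouse 4002, and by the labels the libraries of a mouse share its right kidney, so they were averaged and a mouse counts as 1 replicate. The labels give no treatment and no hormone level for any mouse.

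Every value below is a read count divided by the size factor of its library, called a normalized count. Reads on genes numbered 20694016 to 26333284 per library, and each of the 10 genes had at least 232 reads in every library, so counting error was small beside the spread between mice. Lbr, the mutated gene, was at 329.5 and 314 normalized counts in mouse 4001, 339.6 in mouse 4002, 495 and 448 in mouse 4007 and 416 and 381 in the WT mouse, and a count over the whole gene does not show which allele was read. Libraries also differed in Xist, the noncoding RNA of the silenced X chromosome, and in the Y-linked Ddx3y. Mouse 4002 and the WT mouse had little Xist (65.3, and 39.4 and 31.7 normalized counts) and much Ddx3y (1516, and 1299 and 1269). Mouse 4007 had 10163 and 9718 of Xist with 49.4 and 39.2 of Ddx3y. Mouse 4001 had both, at 5352 and 6218 of Xist with 149 and 133 of Ddx3y, a mix seen in no other mouse. Whether both of its libraries hold RNA of 1 animal alone was not tested, and the counts over the 10 genes are given below without it too. The labels give no sex. Summed markers of the thick limb and distal tubule reached at least 72873 normalized counts in every LBR-null library and those of the collecting duct at least 26108, so the label kidney holds.

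Glucocorticoids such as corticosterone enter cells and bind the glucocorticoid receptor, the product of Nr3c1, which waits in the cytoplasm in a complex of heat shock proteins and co-chaperones. The bound receptor moves to the nucleus, where pairs of receptors bind glucocorticoid response elements and raise transcription of nearby genes, and it also lowers transcription of many inflammatory genes. In the kidney its targets bear on sodium transport, gluconeogenesis and metabolism, and Hsd11b2 protects the distal nephron from the hormone by inactivating it.

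DNA sequence near the start sites is shown for the members in which a response element was found, to set it beside their expression. In its full form the element is AGAACA and TGTTCT with 3 bases of any kind between them, and in a looser form it is GNACA and TGTNC with the same gap, which contains the full form. Both forms read alike on the opposite strand. A full element lay within 5000 bases of a coding start in 0.234% of 22226 genes and a loose one in 19.2% (mm9 sequence, GENCODE gene models). Of the 9 target genes, which were searched (Nr3c1 was not), Fkbp5 and Sgk1 held a full element. In the lines below, capitals mark the loose form with 9 bases on either side, read along the strand of the gene.
Fkbp5, chr17:28579365-28579377, minus strand, 704 bases before a start inside the gene: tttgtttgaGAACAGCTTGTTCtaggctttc
Fkbp5, chr17:28655125-28655137, minus strand, 662 bases before the first start, loose form only: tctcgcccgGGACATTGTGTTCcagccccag
Sgk1, chr10:21713508-21713520, plus strand, 182 bases before a start inside the gene: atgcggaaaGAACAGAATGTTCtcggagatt
Mt1, chr8:96702895-96702907, plus strand, 88 bases before the first start, loose form only: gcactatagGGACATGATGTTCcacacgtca
Mt2, chr8:96695436-96695448, plus strand, 1076 bases before the start, loose form only: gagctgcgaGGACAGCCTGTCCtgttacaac
Fkbp5 held 7 loose sites over its 3 coding starts, one of which is the full element. Mt1 and Mt2, neighbours on chromosome 8, share a loose site at chr8:96698592-96698604, which lies 4391 bases before the first start of Mt1 and 2080 bases after that of Mt2. Tsc22d3, Zbtb16, Ddit4, Klf9 and Errfi1 held neither form in this window, which says nothing of elements farther away.

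Metallothionein genes also respond to zinc and other metals through the factor MTF1, which binds metal response elements, so these are shown for both promoters. The element was searched as TGCACNC or TGCGCNC on both strands, and it shares no letters with a response element for glucocorticoids here. Capitals mark it in the 250 bases before and 50 after the second coding start of Mt1 and the start of Mt2.
Mt1, chr8:96702861-96703160, plus strand: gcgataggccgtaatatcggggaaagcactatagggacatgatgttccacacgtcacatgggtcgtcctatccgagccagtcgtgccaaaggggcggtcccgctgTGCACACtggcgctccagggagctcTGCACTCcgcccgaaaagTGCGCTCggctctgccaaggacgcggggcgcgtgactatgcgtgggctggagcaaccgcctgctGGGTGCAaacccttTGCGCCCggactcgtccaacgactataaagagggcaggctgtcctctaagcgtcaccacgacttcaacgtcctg
Mt2, chr8:96696268-96696567, plus strand: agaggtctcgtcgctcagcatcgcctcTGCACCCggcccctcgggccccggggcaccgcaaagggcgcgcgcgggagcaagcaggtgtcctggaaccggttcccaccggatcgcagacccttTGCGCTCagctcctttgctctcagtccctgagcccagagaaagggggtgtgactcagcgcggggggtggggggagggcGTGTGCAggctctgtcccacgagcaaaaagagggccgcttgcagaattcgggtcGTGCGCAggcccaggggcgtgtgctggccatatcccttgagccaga
These windows held 5 metal response elements for Mt1 and 4 for Mt2, and the window at the first start of Mt1 held 3. At least 1 was found in 37.5% of genes and 4 or more in 0.877%. The loose glucocorticoid element of Mt1 shown above lies inside the same window, in lower case.

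Nr3c1 (mm9, chr18:39570199-39650955), which encodes the receptor, was at 1962 and 2142 normalized counts in mouse 4001, 1738 in mouse 4002, 1585 and 1464 in mouse 4007, and 2145 and 2162 in the WT mouse. Every LBR-null library was below both WT libraries, but mouse 4001 reached 2142 against a WT value of 2145, so the groups barely part. Its mean over the LBR-null mice was 1772 ± 266 (SD, n = 3 mice), and the log2 difference from WT was -0.29 ± 0.26 (SE), with an adjusted p of 0.599. In this direction 25.7% of all 17283 genes tested did not overlap, so the order of the Nr3c1 libraries does not stand apart.

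Genes of the receptor's complex were lower or overlapped with WT, with 1 exception. Of 14 genes for chaperones, co-chaperones and coregulators, 7 lay below both WT libraries in all LBR-null libraries, where 25.7% of all genes tested did, and 1 lay above, where 25.5% did. The median log2 fold change of the 14 was -0.30, beside 0.01 over all genes tested. Fkbp4, the co-chaperone that competes with the product of Fkbp5 for the complex, was between 3082 and 4275 normalized counts in the LBR-null libraries against 7905 and 7997 in the WT libraries, a log2 difference of -1.18 ± 0.27 (SE) with an adjusted p of 0.114 in limma, 0.00387 in DESeq2, 0.00982 in the random effect fit and 0.115 in edgeR. Stip1, which hands the receptor from one chaperone to the next, had a log2 difference of -0.77 ± 0.27 (SE), and the chaperone gene Hspa4 one of -0.62 ± 0.26 (SE). No gene of this group passed limma's adjusted threshold.

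Enzymes that set how much hormone reaches the receptor showed no common direction. Hsd11b1, which regenerates active glucocorticoid, was between 893 and 2229 normalized counts in the LBR-null libraries against 2037 and 2059.9 in the WT libraries, and mouse 4001 was low while mouse 4007 was near WT. Hsd11b2, which inactivates it, was between 2529.6 and 6552 normalized counts in the LBR-null libraries against 6196 and 6227 in the WT libraries, with mouse 4002 above both WT libraries and the other LBR-null mice below. H6pd, which supplies the cofactor of Hsd11b1, lay above both WT libraries in all LBR-null libraries, with a log2 difference of 0.65 ± 0.33 (SE) and an adjusted p of 0.349. Nr3c2, the mineralocorticoid receptor gene, overlapped between the groups at between 163 and 260.0 normalized counts in the LBR-null libraries against 202 and 236 in the WT libraries.

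Fkbp5 (chr17:28536040-28654469) encodes an immunophilin that lowers the receptor's affinity for hormone and is itself a receptor target, a short feedback loop. It was at 7029.6 and 6899 normalized counts in mouse 4001, 4266 in mouse 4002, 6545 and 6535 in mouse 4007, and 1025 and 996 in the WT mouse. All 5 LBR-null libraries lay above both WT libraries, and mouse 4002 stood lowest among the LBR-null mice. The mean over the LBR-null mice was 5924 ± 1451 (SD, n = 3 mice), which is 5.86 times WT, and each mouse on its own was 6.89, 4.22 and 6.47 times WT (mice 4001, 4002 and 4007). The log2 difference was 2.52 ± 0.35 (SE) with an adjusted p of 0.0795, and it ranked 301 from the highest of 17283 genes. Since Fkbp4 was lower in the same libraries, the ratio of Fkbp5 to Fkbp4 counts lay between 1.22 (mouse 4002) and 2.12 (mouse 4007) in the LBR-null libraries and was 0.130 and 0.125 in those of the WT mouse.

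Zbtb16 (chr9:48462416-48644050) encodes PLZF, a zinc finger repressor that is strongly induced by glucocorticoids and progestins. It was at 1007 and 1393 normalized counts in mouse 4001, 939 in mouse 4002, 1233 and 1199 in mouse 4007, and 219.7 and 209.9 in the WT mouse. LBR-null and WT libraries did not overlap, and all 3 LBR-null mice lay within 1.29 times of each other. The mean of 1118 ± 156 (SD, n = 3 mice) was 5.21 times WT, and the log2 difference of 2.37 ± 0.27 (SE) had the smallest adjusted p of the 10 genes, 0.0675. Zbtb16 also had the widest gap between libraries of 1 mouse, 0.47 on the log2 scale in mouse 4001, far below the difference between the groups.

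Tsc22d3 (chrX:137074067-137135198) encodes GILZ, a leucine zipper protein through which glucocorticoids restrain NF-κB and AP-1. Its libraries stood at 13174 and 11054 normalized counts in mouse 4001, 9791 in mouse 4002, 11207 and 11169.9 in mouse 4007, and 4612 and 4823 in the WT mouse. The groups did not overlap, the mean was 11031 ± 1169 (SD, n = 3 mice) and 2.34 times WT, and the log2 difference was 1.22 ± 0.30 (SE) with an adjusted p of 0.117. Tsc22d3 is the X-linked gene among the 10, and Xist differed between the mice. Mouse 4002, whose Xist was near the WT level, was at 2.08 times WT, beside 2.57 and 2.37 in mice 4001 and 4007.

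Klf9 (chr19:23215716-23241401), a Krüppel-like repressor that receptor binding raises within hours, was at 9467 and 8772 normalized counts in mouse 4001, 8459.6 in mouse 4002, 10732 and 10138 in mouse 4007, and 4545 and 4510.5 in the WT mouse. All LBR-null libraries were above both WT libraries, with a mean of 9338 ± 1006 (SD, n = 3 mice) that was 2.06 times WT, the smallest ratio of the 7 genes. Its log2 difference was 1.04 ± 0.29 (SE), with an adjusted p of 0.137. The 3 LBR-null mice were close together, and mouse 4002 alone stayed under 2-fold at 1.87 times WT.

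Ddit4 (chr10:59412423-59414518) encodes REDD1, which inhibits mTORC1 and is also raised by hypoxia and by amino acid or ER stress. It was at 6002 and 5268 normalized counts in mouse 4001, 3559 in mouse 4002, 6375 and 6685 in mouse 4007, and 1969 and 1796 in the WT mouse. The groups did not overlap, and mouse 4002 was the lowest of the LBR-null mice at 1.89 times WT, beside 2.99 and 3.47 in mice 4001 and 4007. The mean was 5241 ± 1524 (SD, n = 3 mice), the log2 difference 1.43 ± 0.38 (SE) and its adjusted p 0.129. Genes that respond to the other inducers of Ddit4 were partly higher as well. Of 12 genes of the hypoxia and integrated stress responses, 8 lay above both WT libraries in all LBR-null libraries and 1 below, with a median log2 fold change of 0.61. Of all genes tested, 25.5% lay above and 25.7% below in this way. The pseudokinase gene Trib3 had a log2 difference of 1.79, the mitophagy gene Bnip3 1.74, Ankrd37 1.57 and the kinase gene Pdk1 1.18, and the lowest adjusted p among these 4 was 0.122 in limma. DESeq2 called these 4 of the 12 higher, beside 3.24% of all genes. The random effect fit called 2 of the 12 higher, Trib3 and Pdk1, beside 2% of all genes, and edgeR called none. The part of these responses in the Ddit4 values was not tested.

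Mt1 (chr8:96702989-96704225) and Mt2 (chr8:96696518-96697467) encode the common metallothioneins, small proteins that bind zinc and copper. Mt1 was at 24542 and 18002 normalized counts in mouse 4001, 9720.0 in mouse 4002, 12245 and 12704 in mouse 4007, and 3381 and 3477 in the WT mouse. Mt2 was at 7723 and 5632 normalized counts in mouse 4001, 2411 in mouse 4002, 3287 and 2978 in mouse 4007, and 684 and 713 in the WT mouse. Both were above WT in all LBR-null libraries, and both were highest in mouse 4001, where the libraries of that mouse also differed by 0.45 and 0.46 on the log2 scale. Mt1 had a mean of 14489 ± 6033 (SD, n = 3 mice), 4.23 times WT, and a log2 difference of 1.999 ± 0.47 (SE) with an adjusted p of 0.115. Mt2 had a mean of 4074 ± 2284 (SD, n = 3 mice), 5.83 times WT, and a log2 difference of 2.40 ± 0.54 (SE) with an adjusted p of 0.114. The SD was large beside the mean for both, since mouse 4001 was 2.77 times mouse 4002 for Mt2 and 2.19 times for Mt1. The ratio of Mt1 to Mt2 counts was 4.94 and 4.88 in the WT libraries and between 3.18 and 4.27 in the LBR-null libraries, so Mt2 exceeded WT by the larger factor. The coding sequences of the pair are alike, and how reads that match both were counted is not given in the sources used here.

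Other zinc genes were set beside the pair. Of 8 tested genes for zinc transporters, MTF1 and further metallothioneins, none lay above both WT libraries in all LBR-null libraries and 1 lay below, beside 25.5% and 25.7% of all genes, with a median log2 fold change of -0.29. The one below was Slc39a14, a zinc importer, at between 357 and 429 normalized counts in the LBR-null libraries against 604 and 614 in the WT libraries. Slc30a2, which loads zinc into vesicles, was above WT in mice 4001 and 4007 and below it in mouse 4002, with a log2 difference of 0.53 ± 0.75 (SE). The importer Slc39a10 had a log2 difference of -0.32 and Mt3 one of -0.69, and both overlapped with WT. Mt4 was listed at 0 in every library.

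Sgk1 (chr10:21601990-21719709), a kinase that raises sodium uptake and answers to both glucocorticoids and aldosterone, did not stand above WT. It was at 9354 and 9264 normalized counts in mouse 4001, 8786 in mouse 4002, 9937 and 9415 in mouse 4007, and 8884 and 9111 in the WT mouse. LBR-null and WT libraries overlapped, the ratio of the means was 1.03, and the log2 difference of 0.04 ± 0.28 (SE) had a 95% confidence interval from -0.649 to 0.728 and an adjusted p of 0.959. A difference of 2-fold in either direction lies outside this interval. Sgk1 and Fkbp5 are the target genes with a full response element, and their values differ.

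Genes for sodium transport that aldosterone acts on were compared because Sgk1 acts on the same transport. Of 9 such genes, 5 lay above both WT libraries in all LBR-null libraries (25.5% of all genes) and none below (25.7%), with a median log2 fold change of 0.29. Scnn1a, the alpha subunit of the epithelial sodium channel, was between 4576 and 8268 normalized counts in the LBR-null libraries against 2261 and 2337 in the WT libraries, a log2 difference of 1.26 ± 0.35 (SE). Its adjusted p was 0.139 in limma, 0.0241 in DESeq2, 0.0251 in the random effect fit and 0.172 in edgeR. The beta subunit Scnn1b had a log2 difference of 0.51, and Stk39, a kinase that activates the sodium chloride cotransporter, one of 0.50.

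Errfi1 (chr4:150228028-150243001), a feedback inhibitor of the EGF receptor that glucocorticoids induce in epithelium, split the LBR-null mice. It was at 14408 and 15184 normalized counts in mouse 4001, 5357 in mouse 4002, 14692 and 14182 in mouse 4007, and 6450.4 and 6548 in the WT mouse. Mice 4001 and 4007 were 2.28 and 2.22 times WT, while mouse 4002 lay below both WT libraries at 0.824 times. The log2 difference of 0.69 ± 0.61 (SE) had a 95% confidence interval from -0.79 to 2.16 and an adjusted p of 0.594.

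**Figure D1:**
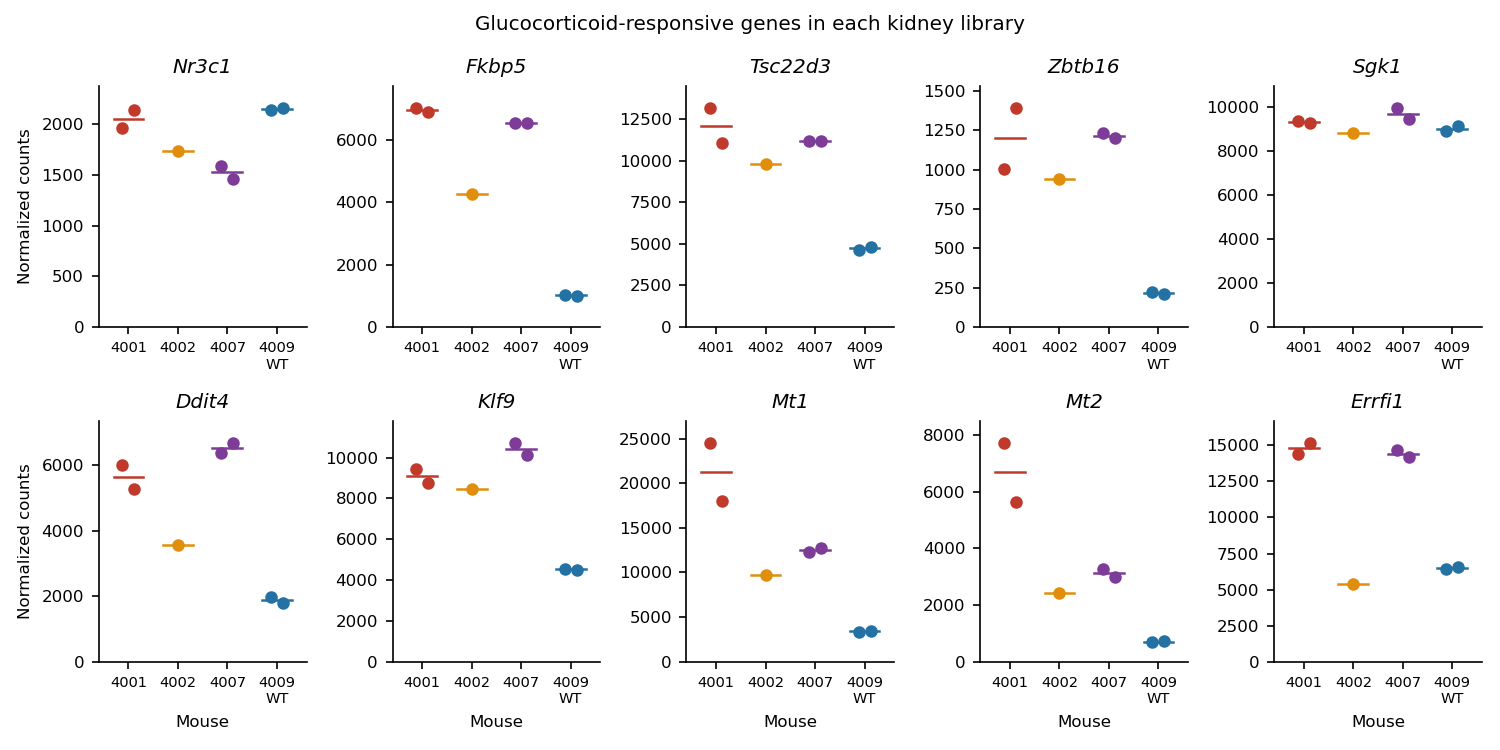
Normalized counts (vertical axes, each from 0) of the 10 genes in every library, by mouse; points are libraries and short lines are mouse means. Fkbp5, Tsc22d3, Zbtb16, Ddit4, Klf9, Mt1 and Mt2 have all LBR-null points above the WT points, Sgk1 overlaps with WT, and Errfi1 has mouse 4002 below WT.

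Over the 10 genes, 7 had an LBR-null mean at least 2 times WT, where 14.5% of all 17283 genes tested did, and none was at least 2-fold lower, where 7.04% were. The same 7 lay above both WT libraries in all LBR-null libraries, beside 25.5% of all genes. At an unadjusted p under 0.05 in limma, 7 were higher, beside 10.7% of all genes, and none was lower, beside 8.05%. Fkbp5, Tsc22d3, Zbtb16, Mt1 and Mt2, 5 of the 10, were at least 2-fold higher in each LBR-null mouse on its own, beside 8.41% of all genes. The median log2 fold change of the 10 genes was 1.33, and the medians of mice 4001, 4002 and 4007 were 1.47, 0.986 and 1.52. Mouse 4002 was the lowest LBR-null mouse in 9 of the 10 genes, including all 7 that stood above WT. It is also the LBR-null mouse near WT in Xist and Ddx3y, while mice 4001 and 4007 differed from WT in these as well as in genotype. Mouse 4002 alone against WT, a comparison chosen after seeing the data, had 7 of the 10 genes above both WT libraries and 3 below, Errfi1 and Sgk1 among them, where 45.4% and 45.5% of the 16826 genes it tested were. At least 2-fold higher were 5 of the 10, beside 10.2% of those genes. Without mouse 4001, whose Xist and Ddx3y were mixed, 7 genes had a 2-fold higher mean, where 13.3% of the 17196 genes tested did, 7 lay above both WT libraries, where 35.7% did, and the median was 1.253.

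**Figure D2:**
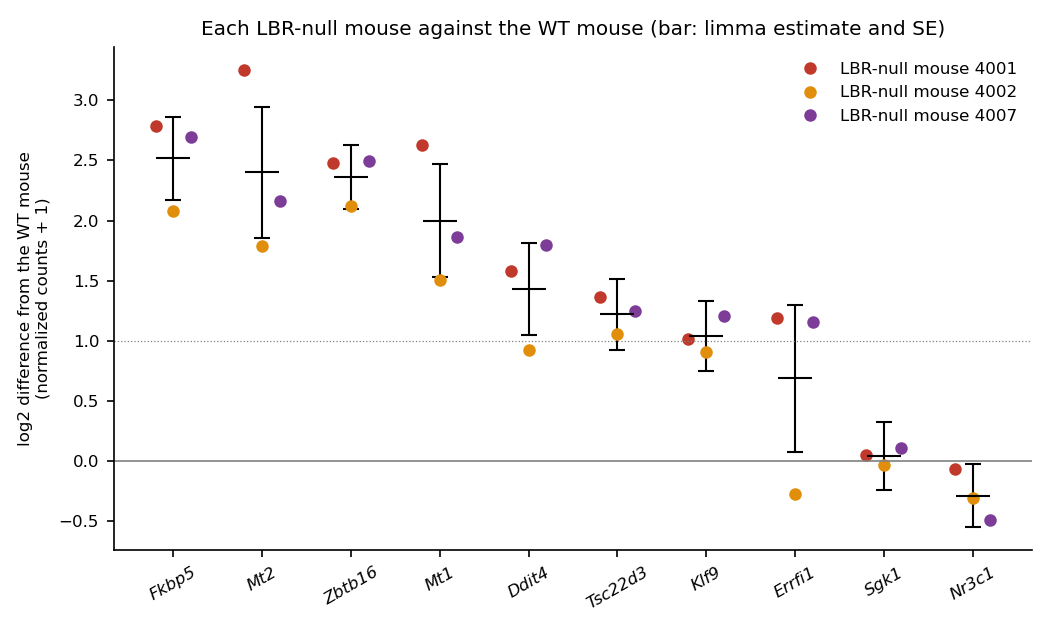
Difference of each LBR-null mouse from the WT mouse on the scale log2(normalized counts + 1) for the 10 genes, with the limma estimate and its SE as a black bar and the dotted line at 2-fold. The 3 mice lie on 1 side of 0 for all genes other than Errfi1 and Sgk1, and mouse 4002 is the lowest of the 3 for all but Nr3c1.

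How far these differences exceed the spread depends on what the spread is taken from. With mice as replicates, limma called 0 of the 10 genes and 0% of all genes at an adjusted p of 0.05 and 2-fold, with adjusted p from 0.0675 (Zbtb16) to 0.959 (Sgk1). The fit gives the lone WT mouse the spread of the LBR-null group, and an exact permutation test of 3 mice against 1 cannot go below p = 0.25. edgeR's quasi-likelihood test on the recovered reads also called none of the 10, and of all 17283 genes it called 1 higher and 27 lower. DESeq2 called 7 of the 10, beside 3.24% of all genes higher, and limma on the 7 libraries with the mouse as a random effect called 7, beside 2%. The random effect fit takes part of its spread from repeat libraries of the same mouse. Its p-values are therefore not those of mice alone, and both fits still rest on 1 WT mouse. The genes called were Fkbp5, Tsc22d3, Zbtb16, Ddit4, Klf9, Mt1 and Mt2 in both fits.

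**Figure D3:**
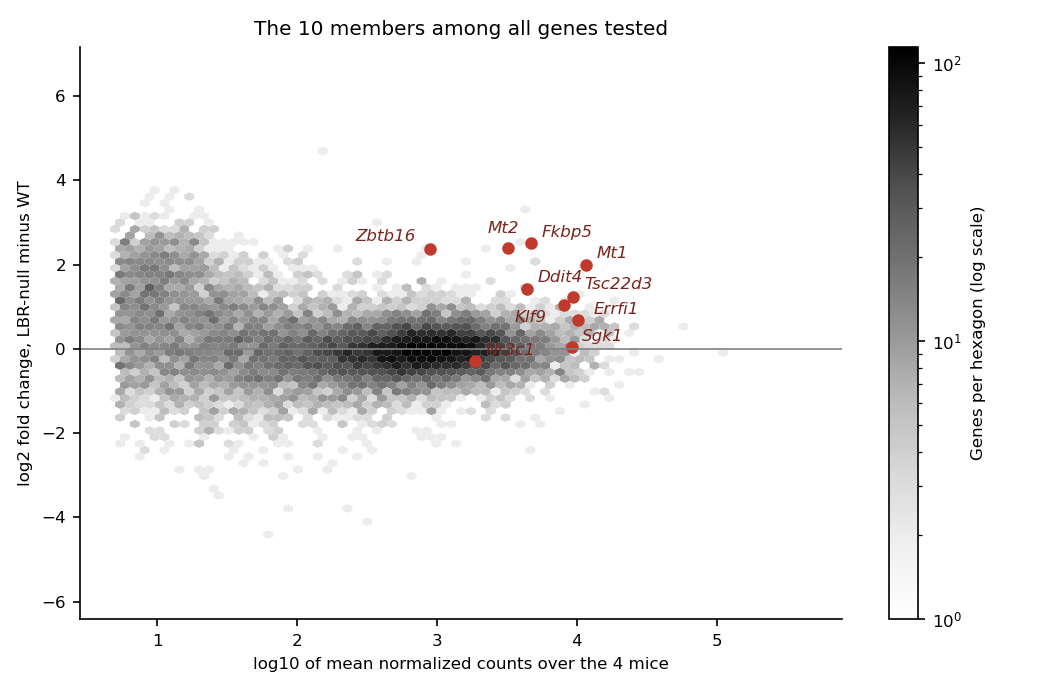
log2 fold change (LBR-null minus WT) against the mean normalized count over the 4 mice on a log10 scale, with all 17283 genes tested as grey hexagons and the 10 genes as red points. Fkbp5, Mt2 and Zbtb16 lie at 2.52, 2.40 and 2.37, above most genes of like abundance, and Nr3c1 and Sgk1 lie within the grey mass.

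Counts per kilobase of exon ordered the genes differently in WT and in LBR-null kidneys. Lengths are those of all exons in the GENCODE gene models and may not match what was counted, since the annotation behind the counts is not given in the sources used here. Mt1 was the most abundant at 4554 normalized counts per kilobase in WT and 19241 ± 8012 (SD, n = 3 mice) in LBR-null kidneys, and Mt2 was at 1256 and 7327 ± 4108. In WT the next levels per kilobase were those of Sgk1 at 1835 and Errfi1 at 1814. In LBR-null kidneys Errfi1 (3219 ± 1493), Ddit4 (3110.5 ± 905), Klf9 (2862 ± 308) and Tsc22d3 (2541 ± 269) came before Sgk1 (1888 ± 91.2), and of neighbours among the first 4 only Klf9 and Tsc22d3 differed by more than the SD of either. Fkbp5 was at 160.0 in WT, below Nr3c1 at 290.1, and at 938 ± 229.7 in LBR-null kidneys, above Nr3c1 at 239 ± 35.8. Zbtb16 was lowest in both, at 42.1 and 219 ± 30.5.

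Other genes that glucocorticoids are known to raise in various tissues were compared next. Their list too was chosen with earlier results of these data known, so the shares below are a description. Of 32 such genes, 23 lay above both WT libraries in all LBR-null libraries (25.5% of all genes) and 4 below (25.7%). A mean at least 2 times WT was found for 16 of them (14.5% of all genes), and 1 was at least 2-fold lower (7.04%). The median log2 fold change of the 32 was 0.83, and limma called none, while at an unadjusted p under 0.05 there were 14 higher genes, beside 10.7% of all genes, and 1 lower gene, beside 8.05%. DESeq2 called 11 of the 32 higher and the fit with the mouse as a random effect 9, where they called 3.24% and 2% of all genes. Hif3a, an inhibitory HIF subunit, was between 1117 and 1388 normalized counts in the LBR-null libraries against 71.5 and 93.7 in the WT libraries, a log2 difference of 3.88 ± 0.25 (SE) with an adjusted p of 0.0533. Pdk4, which blocks pyruvate use in fasting, was between 1329 and 7679.5 normalized counts in the LBR-null libraries against 353 and 386 in the WT libraries, a log2 difference of 3.27 ± 0.86 (SE) in which mouse 4002 was far the lowest. Cdkn1a, the cell cycle inhibitor p21, was between 2401 and 5372 normalized counts in the LBR-null libraries against 424 and 494 in the WT libraries, a log2 difference of 2.91 ± 0.43 (SE) with an adjusted p of 0.0843. Per1, a clock gene with a well known response element, was between 2711 and 3818 normalized counts in the LBR-null libraries against 2079 and 2098 in the WT libraries, and its log2 difference of 0.66 ± 0.26 (SE) was smaller. Mfsd2a, a lipid transporter that fasting and glucocorticoids raise in liver, went the other way at between 2.58 and 13.3 normalized counts in the LBR-null libraries against 126 and 131 in the WT libraries, a log2 difference of -4.50 ± 0.75 (SE) with an adjusted p of 0.0906. That value rests on as few as 3 reads in a library and was -3.738 with a pseudocount of 5. Hif3a, Pdk4, Cdkn1a and Mfsd2a were all called by DESeq2 (adjusted p of 6.26e-28, 7.41e-05, 5.88e-08 and 6.77e-06) and by the random effect fit (0.000108, 0.0101, 0.000629 and 0.0145), while edgeR called Hif3a (adjusted p = 0.0335) and none of the other three.

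**Figure D4:**
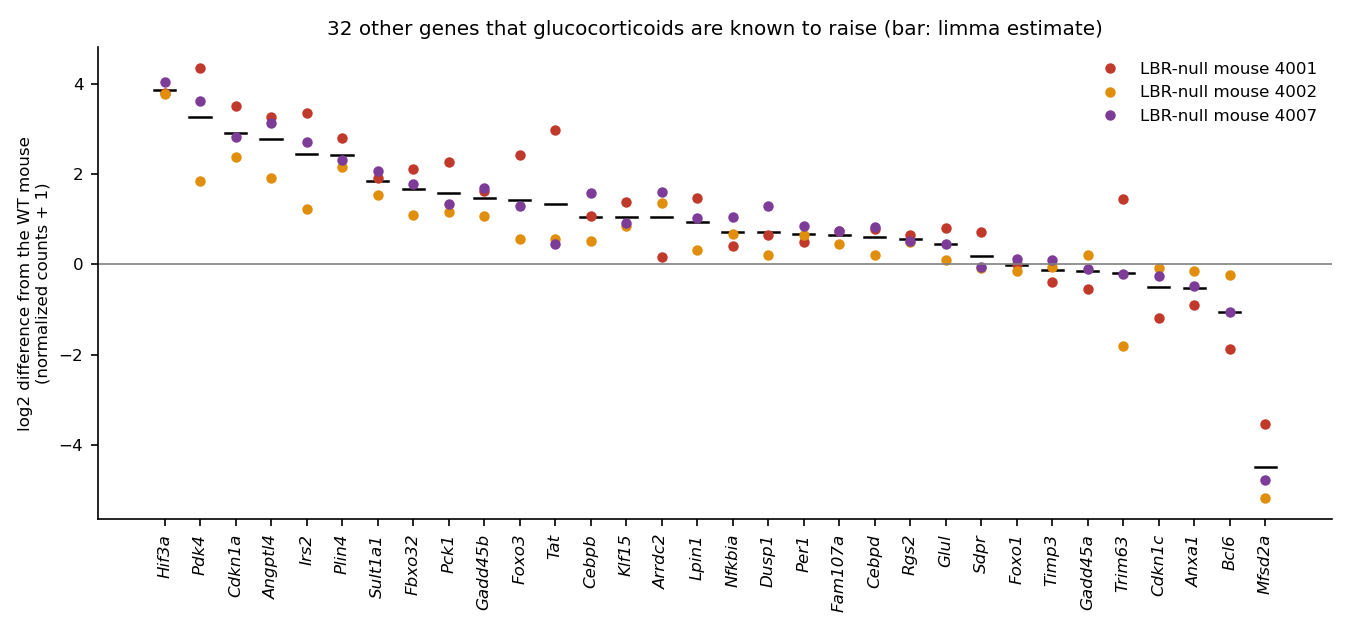
Difference from the WT mouse on the scale log2(normalized counts + 1) for 32 further glucocorticoid-induced genes in each LBR-null mouse, with the limma estimate as a bar. Hif3a is highest at 3.88 with its 3 mice close together, Trim63 spreads most and lies on both sides of 0, Tat, Pdk4 and Irs2 spread widely, and Mfsd2a is lowest at -4.50.

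Genes that the receptor is known to repress were lower or overlapped. Of 10 tested inflammatory genes, none lay above both WT libraries in all LBR-null libraries and 6 lay below, beside 25.7% of all genes, with a median log2 fold change of -0.60. Nos2, inducible nitric oxide synthase, was between 7.29 and 15.1 normalized counts in the LBR-null libraries against 58.8 and 68.5 in the WT libraries, a log2 difference of -2.28 ± 0.49 (SE). Its adjusted p was 0.108 in limma, 0.0127 in DESeq2, 0.0836 in the random effect fit and 0.0927 in edgeR. Vcam1, an adhesion molecule, was between 212 and 392.2 normalized counts in the LBR-null libraries against 578 and 612 in the WT libraries, a log2 difference of -1.05 ± 0.36 (SE). The chemokine gene Ccl5 had a log2 difference of -1.27 ± 0.75 (SE) at low counts. Mmp9, a matrix protease, had -2.09 ± 1.18 (SE), which the single library of mouse 4002 carried in part, since the value was -1.147 without that mouse. Il6 and Tnf were below the count filter of 5. Macrophages express several of these genes, and all 6 macrophage markers also lay below WT in each LBR-null library, beside 25.7% of all genes, with none at 0, a median log2 fold change of -0.755 and sums between 2068.5 and 2524 against 3497 and 3549.8 in WT. Their part in the values of the inflammatory genes was not tested.

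**Figure D5:**
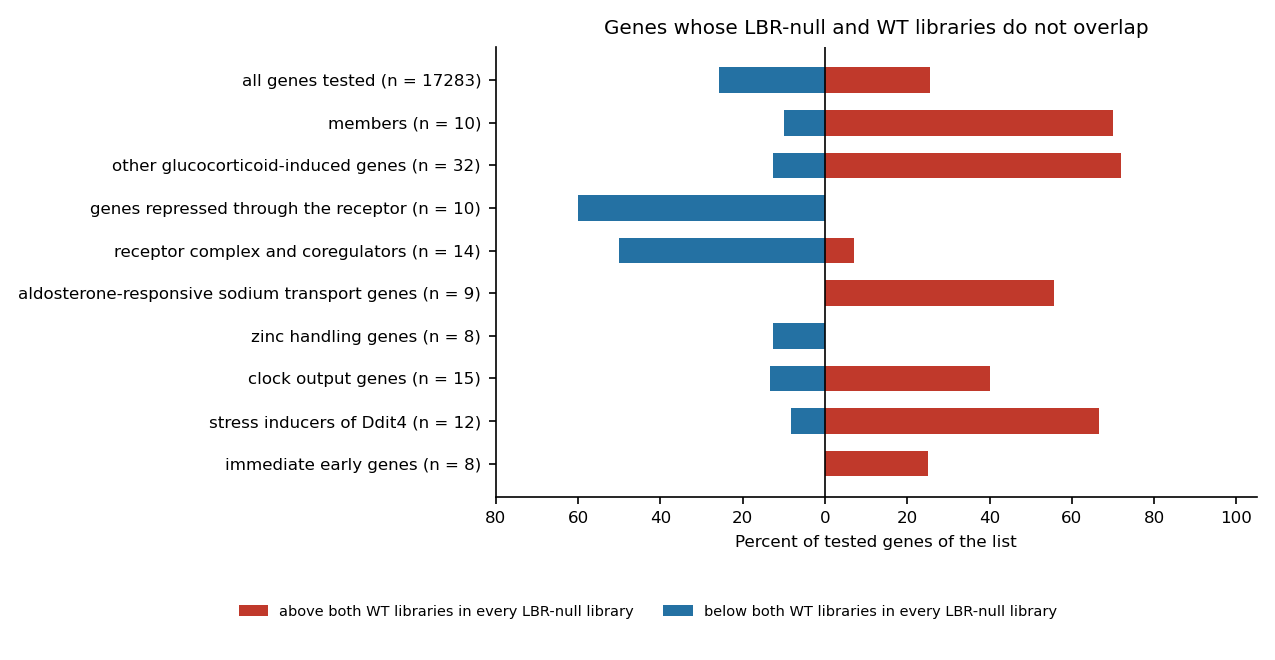
Percent of the tested genes of each list whose LBR-null libraries all lay above (red, to the right) or all below (blue, to the left) both WT libraries, with all 17283 genes tested as the first bar. The 10 glucocorticoid-responsive genes (members) and the 32 other induced genes lean to the right, at 7 of 10 and 23 of 32, and the 10 repressed genes lean to the left, at 6 of 10.

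Glucocorticoids rise and fall daily and act on the clock, so clock genes were set beside these values. Of 15 clock genes, 6 lay above both WT libraries in all LBR-null libraries, beside 25.5% of all genes, and 2 below, beside 25.7%, with a median log2 fold change of 0.04. Dbp, a clock output factor, was between 293 and 439 normalized counts in the LBR-null libraries against 1694 and 1822 in the WT libraries, a log2 difference of -2.24 ± 0.27 (SE) with an adjusted p of 0.0695 in limma, 6.01e-09 in DESeq2, 0.000642 in the random effect fit and 0.0438 in edgeR. Nfil3, Cry1 and Arntl, which peak in a phase far from that of Dbp, had log2 differences of 1.80 ± 0.37 (SE), 1.74 ± 0.29 (SE) and 1.70 ± 0.34 (SE). DESeq2 called all 3 (adjusted p of 0.000884, 0.000132 and 0.00121), as did the random effect fit (0.0101, 0.00530 and 0.00800). Neither limma nor edgeR called any of the 3. The mice were kept on a light and dark cycle, and the hour at which each was killed is not given, so time of day and genotype cannot be told apart here. Immediate early genes, which handling and stress raise, overlapped in 6 of 8 cases, and the other 2 lay above WT, a share near the 25.5% of all genes, with a median log2 fold change of 0.38. Junb and Egr2 lay above both WT libraries, with log2 differences of 0.90 and 1.04, while Fos and Egr1 had 0.76 and 0.48 and mouse 4002 lay within or below the WT values. The Egr2 value rests on 19 and 8 reads in the WT libraries. It was 1.59 without WT library 1 and 0.636 without WT library 2.

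Markers of other cell types also differed between the groups, and in bulk tissue fewer cells of a type and less RNA per cell cannot be told apart. Summed counts of 6 proximal tubule markers were between 51167 and 71487 in the LBR-null libraries against 121553 and 123849 in WT, with 5 of 6 below WT in all libraries and 1 above, beside 25.7% and 25.5% of all genes. Those of 4 podocyte markers were between 7089 and 14912 against 17717 and 17767, with 3 of 4 below WT in all libraries and none above. Of 7 tested neutrophil markers, 7 had a mean at least 2 times WT, beside 14.5% of all genes, and the summed level of the 8 markers was between 399 and 2610.5 against 78.7 and 85.0. Of 6 adipocyte markers, 4 were below WT (25.7% of all genes) and none above (25.5%), while their sum, between 5070.4 and 8685 against 5454 and 5512, overlapped with WT. DESeq2 and the random effect fit each called 5 of 7 neutrophil markers higher, and 4 of 6 proximal tubule and 3 of 6 adipocyte markers lower. Of all 17283 genes, DESeq2 called 539 higher and 578 lower, and the random effect fit 346 and 501. The part of these cell types in the values of the 10 genes was not tested. Tissue from the neighbouring adrenal cortex was looked for by its markers, since it makes corticosterone. All 4 markers that passed the count filter lay above both WT libraries in the LBR-null libraries, 3 of them with a mean at least 2 times WT, beside 25.5% and 14.5% of all genes, and their median log2 fold change was 1.42. The highest of the 4 was 3.46. DESeq2 called 1 of the 4 higher, beside 3.24% of all genes, and the random effect fit called none. Cyp11b1 and Cyp11b2, which define it, were at 0 in the WT libraries and in all but 1 LBR-null library each, where they were at 3.44 and 0.931 normalized counts, while the summed level of the 8 markers was between 181 and 256 in LBR-null libraries against 126 and 146 in WT. The part of such tissue in the values of the 10 genes was not tested.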

How the data were processed

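Poly(A)-selected RNA of the right kidney of 3 LBR-null mice and 1 WT littermate was sequenced as 7 libraries. STAR 2.6.0 was used by the authors to map reads on mm9, and they deposited a signal per gene symbol, namely the read count divided by the size factor of DESeq2 1.25.1. The counting program and its annotation are not given in the sources used here. All values were whole multiples of 1 read (100% within 0.01 read), so reads were recovered by division.

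Libraries were averaged within a mouse, and limma 3.58.1 (R 4.3.3, eBayes with a trend) was fitted to log2(normalized counts + 1) for the 17283 genes whose mean over the 4 mice reached 5, with Benjamini-Hochberg adjustment over all of them. It has 2 residual degrees of freedom among mice. A call was an adjusted p of 0.05 with a 2-fold difference. Fold changes on this scale understate those of low genes. edgeR 4.0.16 and DESeq2 1.42.0 on recovered reads summed per mouse, other scalings, pseudocounts and filters, and each mouse or WT library left out were alternatives. DESeq2 left 671 genes without an adjusted p.

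Positions and sequences are those of the mm9 genome with GENCODE gene models. The 10 genes and all lists were chosen with earlier results of these data known. The rule named all 10 genes, Nr3c2, Hsd11b1, Hsd11b2, Per1, Hif3a and up to 4 genes with the largest absolute log2 fold change of each further list. Of the genes this rule names, 2 are not reported here.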

Additional observations from a re-analysis of the deposited data

Results flagged for a closer look

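Among 47 genes looked at in the 5 LBR-null libraries, 3 had a single library far from the other 4. Chance gives about 1 in 20 only where libraries are independent, which these are not, so that rate does not apply here. In all 3 genes the far library was that of mouse 4002. That mouse gave 1 library, while the other 4 come from mice 4001 and 4007, so a mouse that differs from both appears as a single far library. Fkbp5 was at 4266 normalized counts there, while the others lay between 6535 and 7029.6. Errfi1 was at 5357 there, with the others between 14182 and 15184. Ankrd37, a hypoxia target, was at 248 there, above the others at 112 to 141.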

How the results depend on the processing

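The number of the 10 genes called was 0 with limma on mouse means and 7 with DESeq2 or with limma on the libraries with the mouse as a random effect, and it ranged from 0 to 5 when a mouse or a WT library was left out. The calls among all genes moved likewise, from 0 to 539 higher and 578 lower with DESeq2, 346 and 501 with the random effect, and 1 and 27 with edgeR. Without mouse 4001, 505 genes were called higher and 658 lower, with 5 of the 10 (Fkbp5, Mt2, Mt1, Zbtb16 and Tsc22d3). Without mouse 4002, the counts were 338 and 287, with 5 of the 10 (Ddit4, Fkbp5, Mt2, Mt1 and Zbtb16). Without mouse 4007 none was called. The cause was not tested. Mouse 4002 alone against WT, an alternative chosen after seeing the data, left 5 genes 2-fold higher (10.2% of all genes were), 3 below both WT libraries (45.5%) and a median of 0.986, and it turned the sign of Sgk1 (-0.034), Errfi1 (-0.279), Hsd11b2 (0.077), Mt3 (0.016), Slc30a2 (-0.727), Fos (-0.007) and Egr1 (-0.299). Of 658 values of single genes under 14 alternatives, 651 kept their direction. Most of these alternatives reuse the same 4 mice and all share the 1 WT mouse, so this count says little about other mice. TMM scaling moved the median of all genes by -0.026 on the log2 scale.

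No paired analysis was possible because replicate numbers mark libraries of 1 mouse and pair no mice. The single WT mouse limits every comparison here, since its own spread was not measured.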
